A study of Caenorhabditis elegans with 4 samples.

Results

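The vitellogenin genes of *C. elegans*, *vit-1* to *vit-6*, encode the yolk lipoproteins of the egg. They were taken as the rows of the expression table whose gene description is one of these names, which gave 6 of 15408 genes, and all 6 passed the filter on low values. RNA was sequenced from whole animals of the wild-type strain N2, grown as mixed-stage populations on OP50 bacteria at 20°C. Of 4 libraries of poly-A RNA, 2 came from populations exposed to 60 µg/ml cisplatin, a platinum compound that crosslinks DNA, for 24 h at 20°C, and 2 from unexposed populations. The replicates are described as biological and are numbered 1 and 2 in each group. The labels carry this dose in the treatment field, whereas a protocol text gives 0 µg/ml, and the treatment field was followed. The question addressed here is how the yolk transcripts differed between exposed and unexposed populations.

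Yolk is made in the intestine of adult hermaphrodites, secreted into the body cavity and taken up by growing oocytes through RME-2, a receptor of the low-density lipoprotein receptor family. *vit-1* and *vit-2* encode one form of the large yolk polypeptide, *vit-3*, *vit-4* and *vit-5* encode the other form, and *vit-6* encodes a precursor that is cut into a pair of smaller polypeptides. Larvae and males transcribe these genes little or not at all. Because the populations held embryos, larvae and adults, fewer cells or animals that make yolk and less yolk RNA in each cannot be told apart in these libraries.

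Transcript levels were deposited as FPKM, fragments scaled to exon length and to the mapped fragments of the library, which allows genes to be compared per length. From the width of the confidence bounds that the authors deposited, read as Poisson intervals, the counting error of each of the 24 vitellogenin values was estimated at 0.220 to 0.708%. This is an estimate, since none of the 24 values lay within its own deposited bounds, and the files hold no read counts. The median over all genes was 9.25 and 12.3 FPKM in cisplatin libraries 1 and 2, and 6.64 and 12.7 FPKM in control libraries 1 and 2. Among transcripts of the labelled mixed-stage animals, markers of oocytes and eggshell, sperm, intestine and moulting were found in every library. Of 14 embryo genes listed, only 5 were in the table. The summed FPKM of 13 moulting genes was higher in the libraries numbered 2, at 450 and 521, than in those numbered 1, at 163 and 141.

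The 6 genes fall into structural groups that match the known yolk polypeptides. In the Ensembl annotation of WBcel235, 5 of them lie on chromosome X, *vit-1* at chrX:7727889-7733168 on the plus strand, *vit-2* at chrX:5101042-5106169 on the plus strand, *vit-3* at chrX:3567355-3572549 and *vit-4* at chrX:3558769-3563965 on the minus strand, and *vit-5* at chrX:3403471-3408603 on the plus strand. *vit-6* lies on chromosome IV at chrIV:8261157-8266459, on the plus strand. *vit-3* and *vit-4* are neighbours with 3389 bases and 0 annotated genes between them, and *vit-5* lies 150.2 kb from *vit-4*. The longest transcript has 6 exons in *vit-3*, *vit-4* and *vit-5*, and 5 exons in *vit-1*, *vit-2* and *vit-6*. Exons 2 to 5 of *vit-3*, *vit-4* and *vit-5* have the same lengths, 285, 3038, 229 and 136 bases, and each of these genes encodes 1603 residues. *vit-1* and *vit-2* share the length of exon 2, at 285 bases, and of exon 4, at 247 bases, and encode 1616 and 1613 residues. *vit-6* has its own exon lengths, with 3948 bases in exon 3, and encodes 1650 residues.

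**Figure D1:**
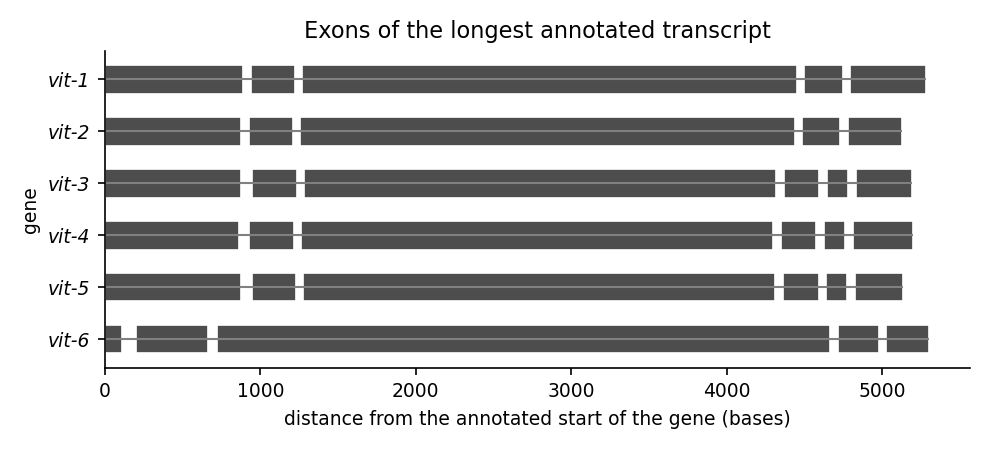
Exons of the longest annotated transcript of each vitellogenin gene (boxes), against the distance from the annotated start of the gene in bases. *vit-3*, *vit-4* and *vit-5* have 6 exons with the same lengths from exon 2 to exon 5, and the other genes have 5.

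Genes with such like structures may share reads, which was not examined here. The authors filtered reads that map to several places, and how the reads of *vit-3*, *vit-4* and *vit-5* were divided is not given in the sources used here, so the separate values of these 3 genes are treated as uncertain and their sum is also given. Their deposited coordinates differ as well, since those of *vit-3* and *vit-4* each span only 873 bases, around exon 1, while those of the other 4 genes span the whole gene. *vit-2* overlaps C42D8.9, a protein-coding gene on the opposite strand, and *vit-3* and *vit-4* each overlap a non-coding RNA gene on the opposite strand. The sources used here do not say whether strand was used in counting reads.

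The vitellogenin transcripts were among the most abundant of the table, and *vit-2* led them in every library. Ranked by FPKM among all genes, *vit-2* stood between place 7 and 19, *vit-6* between 9 and 51, *vit-5* between 38 and 56, *vit-3* between 88 and 104, *vit-4* between 94 and 109 and *vit-1* between 146 and 218. The order *vit-2*, *vit-6*, *vit-5*, *vit-3*, *vit-4*, *vit-1* held in 3 libraries, and in cisplatin library 1 *vit-5* stood above *vit-6*. Neighbours in this order were not all separated by the spread of the libraries. *vit-3* and *vit-4* overlapped in each group, and *vit-5* and *vit-6* overlapped with cisplatin but not in the controls. *vit-2* and *vit-6* did not overlap in either group, although the lower *vit-2* control, at 6123 FPKM, was close to the higher *vit-6* control, at 5952 FPKM.

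**Figure D2:**
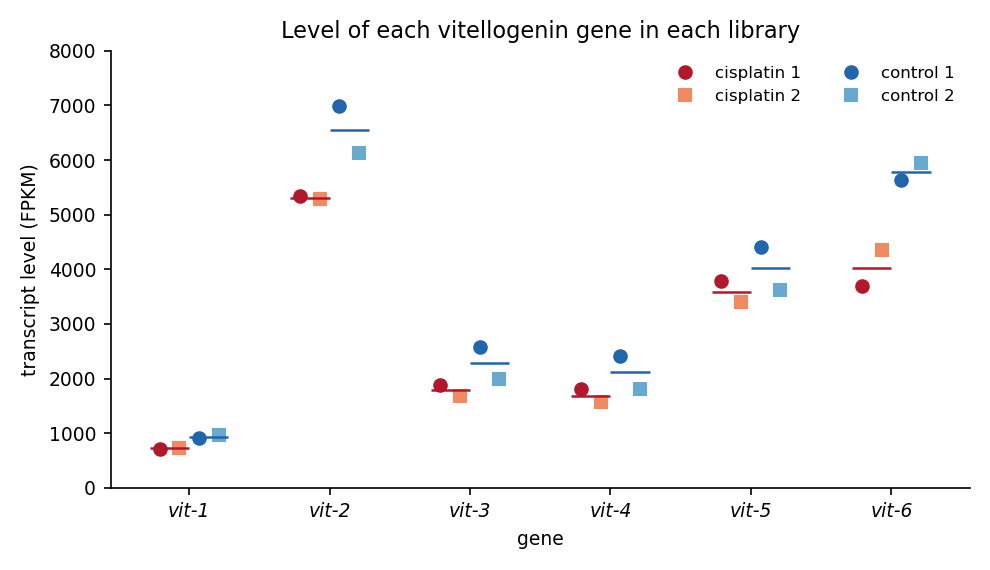
Level in FPKM of each vitellogenin gene in each library, with points for libraries and short bars for the mean of each group of 2. *vit-2* is highest in all 4 libraries and *vit-1* lowest, and for 5 of the 6 genes both cisplatin libraries lie below both controls, *vit-5* being the exception.

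Levels of all 6 vitellogenin genes were lower on average with cisplatin, by 10.6% for *vit-5* and up to 30.5% for *vit-6*, but no difference passed the test. The place of *vit-6* as the lowest did not hold throughout. With quantile normalization *vit-1* and *vit-3*, both at -0.33, had a lower log2 fold change than *vit-6*, at -0.30. Without cisplatin library 1 *vit-3* was lower than *vit-6* (-0.43 against -0.41). Without control library 2 *vit-3* and *vit-4* were lower than *vit-6* (-0.53 and -0.52 against -0.49). *vit-6*, the chromosome IV gene, had 3699.7 and 4344.5 FPKM in the exposed libraries and 5627 and 5952 FPKM in the controls. Both exposed libraries were below both controls, and the log2 fold change, taken here and below on log2(FPKM + 0.5) as cisplatin minus control, was -0.53 (standard error 0.45, 95% interval -1.62 to 0.57). *vit-2*, the most abundant, had 5334 and 5281 FPKM in the exposed libraries and 6994 and 6123 FPKM in the controls. Its exposed libraries were close together and below both controls, with a log2 fold change of -0.30 (standard error 0.49, interval -1.50 to 0.89). *vit-1*, which encodes the same polypeptide form at a lower level, had 716 and 729 FPKM with cisplatin against 911 and 963 FPKM without. The groups were again apart, and the log2 fold change was -0.37 (standard error 0.22, interval -0.92 to 0.17).

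The 3 genes with near-identical structure had log2 fold changes of -0.35 to -0.16, and in each of them control library 1 was the highest of the 4. *vit-3* had 1884 and 1687 FPKM in the exposed libraries and 2582 and 1995 FPKM in the controls, so the groups did not overlap, and its log2 fold change was -0.35 (standard error 0.33, interval -1.14 to 0.44). *vit-4* had 1804 and 1571 FPKM in the exposed libraries and 2417 and 1809.7 FPKM in the controls. Its higher exposed library was only just below the lower control, and the log2 fold change was -0.31 (standard error 0.32, interval -1.099 to 0.47). *vit-5* had 3779 and 3401 FPKM in the exposed libraries and 4416 and 3615 FPKM in the controls. Here cisplatin library 1 was above control library 2, so the groups overlapped, and the log2 fold change was -0.16 (standard error 0.41, interval -1.15 to 0.84). Between libraries of the same number, not taken as pairs in that fit, *vit-5* was lower with cisplatin in both, at -0.22 and -0.09. Summed over the 3 genes, the levels were 7467 and 6659.7 FPKM against 9415 and 7419 FPKM, and these sums also overlapped.

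Across the table, limma (two-sided, Benjamini-Hochberg) called 0% of the 15065 genes tested at an adjusted p under 0.05, and it called 0 of the 6 vitellogenin genes, each with an adjusted p of 1.00. At an unadjusted p of at most 0.05 it found 67 genes lower, 0.445% of those tested, and 168 higher, 1.12%. None of the 6 was among them, the smallest unadjusted p being 0.145 for *vit-1* and the largest 0.716 for *vit-5*. An exact permutation of 2 against 2 libraries was not run, as its smallest possible two-sided p is 0.33. Both cisplatin libraries were below both controls for 5 of the 6 genes, against 634 genes or 4.21% of all genes tested. None had both cisplatin libraries above both controls, as 2274 genes or 15.1% did. The limma p-values rest on 2 libraries a group and on a spread that limma shares across genes of like level.

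The median log2 fold change of the 6 genes was -0.33, and that of all genes tested was 0.13, so the vitellogenin median was -0.46 relative to all genes. How far below depended on single libraries. Without control library 1 the median of all genes was -0.15 and that of the 6 genes -0.18, a relative value of -0.03, and without control library 2 the relative value was -0.87. It was -0.66 without cisplatin library 1 and -0.28 without cisplatin library 2. Scaling also moved the level of all genes, to a median of 0.01 with quantile normalization and of -0.06 where libraries were brought to a common median, and the relative vitellogenin value was then -0.30 and -0.48. The list was chosen with these results known and was given no test of its own.

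**Figure D3:**
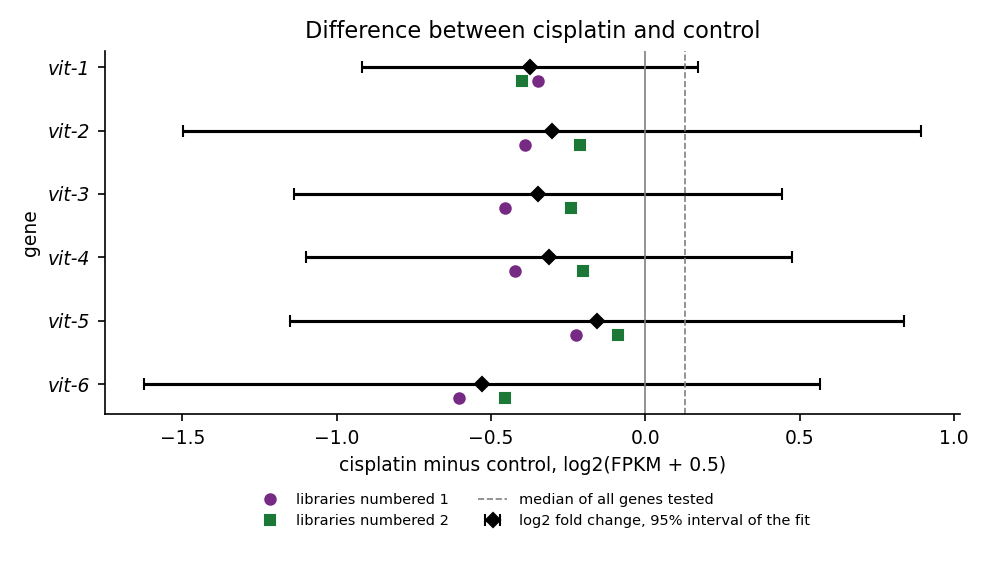
Difference between cisplatin and control on the log2(FPKM + 0.5) scale for each gene, as the fitted log2 fold change with its 95% interval (diamonds) and between the libraries that share a number (circles for 1, squares for 2). The fitted values run from -0.53 for *vit-6* to -0.16 for *vit-5*, every interval spans 0, and the dashed line marks the median of all genes tested, 0.13.

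The fitted errors were wider than the spread of the vitellogenin genes themselves, since limma shares the spread across genes of like level. From its own 4 libraries alone, the standard error of the log2 fold change was 0.04 for *vit-1*, 0.10 for *vit-2*, 0.12 for *vit-6*, 0.16 for *vit-5*, 0.20 for *vit-3* and 0.23 for *vit-4*. The 171 genes at least as abundant as *vit-1* had a median of 0.30 for the same quantity. The vitellogenin replicates were thus closer than those of the typical abundant gene, though each such error rests on 2 libraries a group.

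The family did not share one difference between the replicates. Library 2 minus library 1, on the log2 scale, was 0.23 with cisplatin and 0.08 without for *vit-6*, and 0.03 and 0.08 for *vit-1*. It was -0.16 and -0.37 for *vit-3*, -0.20 and -0.42 for *vit-4* and -0.15 and -0.29 for *vit-5*. The 3 near-identical genes were therefore lower in the libraries numbered 2 in both groups, whereas *vit-6* and *vit-1* were higher there, and *vit-2* differed by -0.01 and -0.19. The median of all genes tested was 0.28 with cisplatin and 0.64 without, above the value of every vitellogenin gene in the same group. Markers of developmental stage also differed between these libraries, with medians of 1.49 with cisplatin and 1.69 without for the moulting genes and of -0.34 and -0.59 for 12 oocyte and eggshell genes. Their part in the vitellogenin values was not tested.

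Summed over the 6 genes, vitellogenin transcripts amounted to 17217 and 17015 FPKM in the exposed libraries and 22946 and 20458 FPKM in the controls, 21.1% lower on average. They made up 1.63% and 1.73% of all FPKM with cisplatin and 2.05% and 2.09% without. Both measures had the exposed libraries below the controls. The pair *vit-1* and *vit-2* summed to 6050 and 6010.4 FPKM against 7904 and 7086 FPKM, also without overlap.

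Within this sum the makeup was much alike in the 4 libraries. *vit-2* took 30.98% and 31.04% with cisplatin and 30.5% and 29.9% without, and *vit-1* took 4.16% and 4.29% against 3.97% and 4.71%. *vit-5* took 21.9% and 20.0% with cisplatin and 19.2% and 17.7% without, so its share was higher in both exposed libraries, and it was also higher relative to *vit-3*, at ratios of 2.01 and 2.02 against 1.71 and 1.81. *vit-6* took 21.5% and 25.5% with cisplatin and 24.5% and 29.1% without. These shares overlapped, and in each group the library numbered 2 had the larger one. The ratio of *vit-4* to *vit-3* stayed between 0.907 and 0.957.

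**Figure D4:**
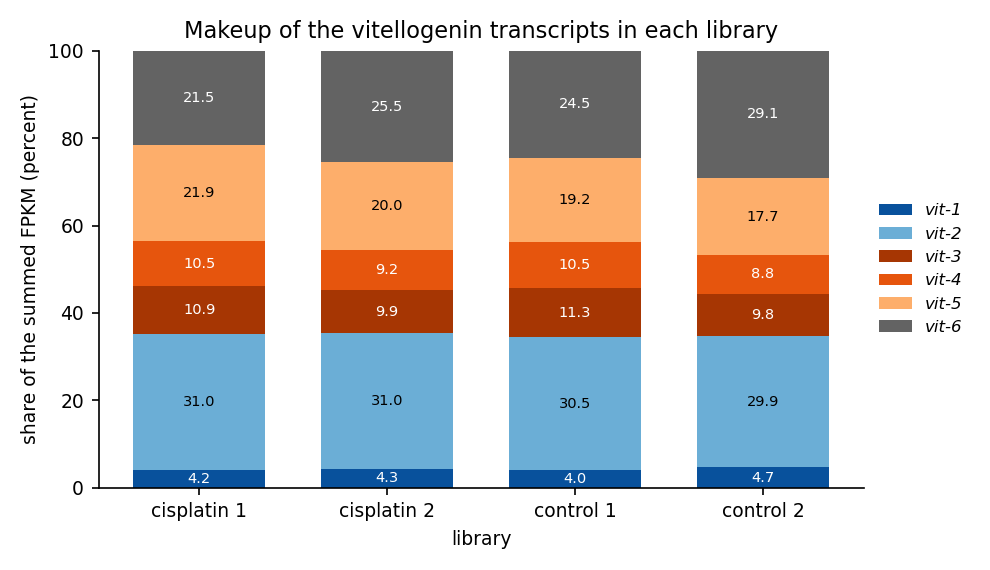
Share of each gene in the summed vitellogenin FPKM of each library, in percent, stacked to 100. *vit-2* holds 29.9% to 31.04% throughout, *vit-5* is larger with cisplatin (21.9% and 20.0%) than without (19.2% and 17.7%), and *vit-6* is larger in the library numbered 2 of each group.

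Genes that act on yolk after its synthesis had mostly small positive log2 fold changes, and none passed the test. *rme-2*, the yolk receptor of the oocyte, had 259 and 225 FPKM in the exposed libraries and 241 and 184 FPKM in the controls, and its log2 fold change was 0.20 (standard error 0.21; 0.01 without control library 2 and 0.39 without control library 1). The groups overlapped, with the lower exposed library between the controls. Between libraries of the same number *rme-2* was higher with cisplatin in both, at 0.11 and 0.29. Of 10 genes of yolk uptake and endocytosis, 0 passed the test, 10 had a positive log2 fold change, as had 10448 of all 15065 genes tested, and the median was 0.17, against 0.13 for all genes, although it was -0.04 where libraries were brought to a common median. Relative to all genes this median was 0.04, but -0.14 without cisplatin library 1, 0.20 without cisplatin library 2, 0.31 without control library 1 and -0.21 without control library 2. At the ends of this list were the endosomal GTPase genes *rab-5* and *rab-7*, at 0.06 and 0.07, and *rme-6*, which encodes a RAB-5 exchange factor, and the dynamin gene *dyn-1*, at 0.46 and 0.56. Without each library in turn these ran from 0.21 to 0.71 for *rme-6* and from 0.21 without control library 1 to 0.90 without control library 2 for *dyn-1*. Both exposed libraries were above both controls for *dyn-1*, at 39.1 and 39.5 against 20.8 and 33.8 FPKM. For yolk secretion, 2 genes were tested and 0 passed, with a median of 0.39. *dsc-4*, which encodes a microsomal triglyceride transfer protein that loads lipoproteins with lipid, had 38.7 and 54.2 FPKM against 19.4 and 39.6 FPKM. The lower exposed library was just below the higher control, and the log2 fold change was 0.71, or 0.21 without control library 1 and 1.22 without control library 2. With a replicate block in limma the adjusted p of *dsc-4* was 0.0241. *sft-4*, a gene of cargo export from the endoplasmic reticulum, had a log2 fold change of 0.06. The yolk protease gene *cpl-1* was not analysed here.

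Among genes known to regulate vitellogenin transcription the direction of the median rested on single libraries. The list was not split by whether a gene raises or lowers vitellogenin transcription, so its median and signs predict no direction for the yolk genes. Of 16 such genes, which include the intestinal GATA factor gene *elt-2* and genes of insulin, TGF-beta and TORC2 signalling, 0 passed the test, 14 had a positive and 2 a negative log2 fold change, against 10448 and 4617 of all genes tested, and the median was 0.21. That median was -0.25 without control library 1, -0.05 without cisplatin library 2, 0.45 without cisplatin library 1 and 0.85 without control library 2. The median of all genes moved the same way. Relative to it the regulator median was -0.09, -0.06, 0.18 and 0.42 in the same order, and 0.08 with all libraries. The 2 regulators with a negative log2 fold change were *tra-1*, a sex determination gene, at -0.06, and *sma-2*, a SMAD gene, at -0.04. *rict-1*, which encodes the Rictor subunit of TORC2, a complex that acts in the intestine and promotes vitellogenin expression, had 31.02 and 31.48 FPKM in the exposed libraries and 13.2 and 17.4 FPKM in the controls. Its exposed libraries were far above both controls, with a log2 fold change of 1.02 (standard error 0.30), an unadjusted p of 0.0125 and an adjusted p of 1.00 in limma. With a replicate block in limma the adjusted p of *rict-1* was 0.00412, and over all alternatives the log2 fold change of *rict-1* ran from 0.81 to 1.22. *ceh-60*, a homeobox gene that acts with *unc-62* to activate vitellogenin genes, had a log2 fold change of 0.46 at only 3.73 to 7.69 FPKM.

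Relative to *rme-2* and to transcripts of the intestine, the vitellogenin sum was lower with cisplatin. Divided by *rme-2*, it was 66.4 and 75.5 with cisplatin and 95.3 and 111 without, 31.3% lower on average. Divided by the summed FPKM of 19 intestinal genes it was 3.66 and 4.16 against 5.70 and 5.75. Both ratios had the exposed libraries below the controls. The comparators were themselves higher on average with cisplatin, *rme-2* at 242 against 212 FPKM and the intestinal sum at 4395 against 3791 FPKM. The ratios were thus lower by more than the vitellogenin sum alone, which was 21.1% lower. The intestinal sum itself was 4699.9 and 4090.4 FPKM against 4024 and 3557 FPKM, with 0 of 19 genes called and a median log2 fold change of 0.25. That median was -0.02 without control library 1, 0.10 without cisplatin library 2, 0.08 with quantile normalization and 0.05 at a common median of the libraries. A single gene, *asp-1*, an intestinal aspartic protease, made up 34.4% to 46.9% of it. Without *asp-1*, left out after its share was seen, the ratio was 6.90 and 7.21 against 10.3 and 8.77, still without overlap.

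Relative to the germline and to markers of stage the picture was mixed. The summed level of the 12 oocyte and eggshell genes was 5087 and 3880.2 FPKM in the exposed libraries and 5216 and 3300.3 FPKM in the controls, with a median log2 fold change of 0.10 (-0.11 at a common median of the libraries) and 0 called. Without control library 2 that median was -0.21, and without control library 1 it was 0.44. The vitellogenin sum was 3.38 and 4.38 times this level with cisplatin and 4.40 and 6.20 times without, so the higher exposed and the lower control library were nearly equal. The adult cuticle collagen gene *col-19* had 1692 and 1015 FPKM in the exposed libraries and 1643 and 1177 FPKM in the controls. Divided by it, the vitellogenin sum was 10.2 and 16.8 against 13.96 and 17.39, which overlapped, and the summed level of the 3 adult cuticle genes, 1738 and 1174 against 1687 and 1359 FPKM, overlapped as well. Divided by the moulting genes the ratio was 106 and 37.8 against 163 and 39.2. Here the libraries grouped by number and not by exposure. The moulting list had a median log2 fold change of 0.02 and 0 of 13 called, and 5 embryo genes, of 14 listed, had a median of -0.01 and 0 called. Both medians moved with single libraries, from -0.88 without control library 1 to 0.97 without control library 2 for moulting and from -0.41 to 0.39 without the same libraries for the embryo genes.

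**Figure D5:**
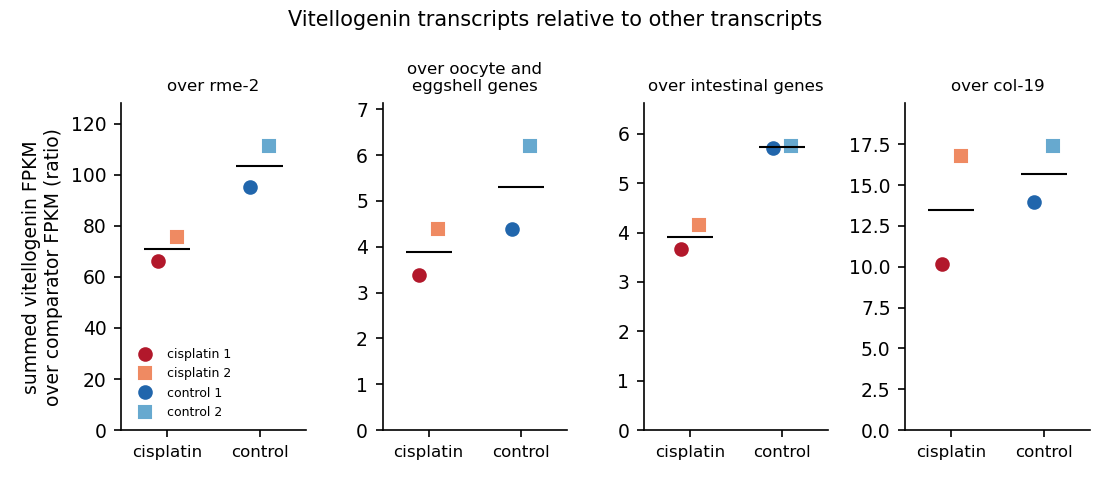
Summed FPKM of the 6 vitellogenin genes divided by that of *rme-2*, 12 oocyte and eggshell genes, 19 intestinal genes or *col-19*, with points for libraries, lines for the mean of each group of 2 and axes that start at 0. Over *rme-2* (66.4 and 75.5 against 95.3 and 111) and over the intestinal genes (3.66 and 4.16 against 5.70 and 5.75) both exposed libraries lie below both controls, whereas over *col-19* the groups overlap.

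Sperm transcripts, which hermaphrodites make before they make oocytes and yolk, also had lower levels with cisplatin. The summed level of 28 sperm genes was 1989 and 2292 FPKM in the exposed libraries and 5047 and 4075 FPKM in the controls, with a median log2 fold change of -1.04, against -0.33 for the vitellogenin genes, a difference that was not tested. All 28 were negative, as were 4617 of all 15065 genes tested. Both exposed libraries were below both controls for 23 of them, against 4.21% of all genes. By limma 0 were called, and 22 had an unadjusted p of at most 0.05, against 0.445% of all genes lower at that p. The vitellogenin sum was accordingly 8.66 and 7.43 times the sperm sum with cisplatin and 4.55 and 5.02 times without.

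The mean profile of the 6 genes over the 4 libraries was compared with that of each of 7761 other genes with at least 10 FPKM on average, as the root mean square difference of log2 values centred on each gene's own mean. The nearest was *elo-5*, which encodes a fatty acid elongase for branched-chain fatty acids, at 0.018, with 70.8 and 66.8 FPKM in the exposed libraries and 94.5 and 81.9 FPKM in the controls. Next came *chp-1* at 0.035, the ribosomal protein gene *rpl-1* at 0.039, R12C12.1 at 0.041 and Y60A3A.14 at 0.043. *rpl-1* had 2455 and 2446 FPKM against 3199.9 and 2730.2 FPKM. The members themselves lay between 0.021, for *vit-2*, and 0.166, for *vit-6*, and 646 other genes, 8.32%, were as near as *vit-6*. That count used the distance of the farthest member, so it does not show that many genes share the profile. Apart from *vit-2*, each member was farther from the mean profile than the outside genes named here, the nearest of them being *vit-3* at 0.078. *rme-2*, at 0.284, was farther away than any member, as were all but those 646 of the 7761 genes. The members make up the mean profile, which draws them near it.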

How the data were processed

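Per the labels and the methods, poly-A RNA of N2 populations was sequenced as paired ends. The submitters' processing notes name TopHat, Cufflinks and Cuffdiff without versions, and the WBcel235 assembly, and the authors filtered reads with several mapping sites. The deposited FPKM values of each library, with their bounds, are the authors' estimates and not counts. Each value carries a deposited status, another column type that marks failed estimates, which touched 88 genes (114 values, each at 0) and 0 vitellogenin values. These genes were left out. Columns with the authors' fold changes, p-values and q-values were not used. The authors' FPKM of each condition appears in the closing section only.

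The 15065 genes whose mean reached 0.5 FPKM were put on the log2(FPKM + 0.5) scale and fitted in R 4.3.3 (limma 3.58.1, intensity trend), with group as the only term, Benjamini-Hochberg adjustment and a threshold of 0.05. The fit was tested on simulated data with the same spread for every gene, no replicate difference and changes larger than those of the vitellogenin genes. That test cannot show whether changes as small as theirs would be found. Alternatives changed the scaling, pseudocount, low-value filter, failed estimates, replicate block, trend and each library. Gene positions came from the Ensembl annotation of WBcel235, in which all 6 genes were found by ID. The members and gene lists (yolk uptake, yolk secretion, regulators, adult cuticle, oocyte and eggshell, sperm, moulting, intestine, embryo) were chosen with earlier results of these data known. Genes named were the 6 members, *rme-2*, *cpl-1*, *col-19*, the 2 genes at either end of the uptake, secretion and regulator lists, and the 5 nearest in profile. The ends of the marker lists are not named. *asp-1* was named after its values were seen. Genes of a list that are absent from the tested set were not analysed here.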

Additional observations from a re-analysis of the deposited data

How the results depend on the processing

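All 6 log2 fold changes were negative under every alternative except for *vit-5* with quantile normalization, at 0.0028, and no vitellogenin gene passed an adjusted p of 0.05 under any. With quantile normalization 2 of the 6, *vit-3* and *vit-4*, had an unadjusted limma p of at most 0.05 (0.0258 and 0.0424), while *vit-2* was at -0.09 and *vit-6* at -0.30. The vitellogenin median was -0.54 when libraries were brought to a common median. Without each library in turn, where the lone library of a group is assumed to vary like the other group, it ran from -0.44 to -0.18. For single genes these ranges were -0.41 to -0.33 for *vit-1*, -0.40 to -0.21 for *vit-2*, -0.53 to -0.16 for *vit-3*, -0.52 to -0.10 for *vit-4*, -0.30 to -0.01 for *vit-5* and -0.65 to -0.41 for *vit-6*. They spanned 0 for *col-19* (-0.45 to 0.28), *rab-5* (-0.0723 to 0.19), *rab-7* (-0.0628 to 0.21), *sft-4* (-0.0708 to 0.18), *tra-1* (-0.20 to 0.0841), *sma-2* (-0.52 to 0.44) and *ceh-60* (-0.0008 to 0.92). At a common median of the libraries *rme-2* was at -0.0105, *rab-5* at -0.15, *rab-7* at -0.14 and *sft-4* at -0.15. The causes were not tested.

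Over all genes, 0 were called, and 0 to 21 without 1 library. Replicate numbers are not said to mark a shared batch, although the paper writes of changes found in both experiments. Only 2 pairs exist, and the numbers were not taken as pairs in the main fit. Library 2 minus library 1 did correlate between the groups across 15065 genes (r = 0.594). Between libraries of the same number every vitellogenin gene was lower with cisplatin, from -0.60 for *vit-6* in number 1 to -0.09 for *vit-5* in number 2. The median of all genes tested was 0.25 in number 1 and -0.003 in number 2. With a replicate block 369 genes were called, 138 lower and 231 higher, among them *rict-1* (adjusted p = 0.00412) and *dsc-4* (adjusted p = 0.0241) but none of the 6 vitellogenin genes, whose smallest limma p was 0.0271 (adjusted 0.375), for *vit-1*. The estimated counting error of the vitellogenin values was at most 0.708%, from bounds that none of the values fell within.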

Other observations

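The authors' FPKM of each condition, which the comparisons above do not use, was far from the library values for 2 of the 6 genes. For *vit-3* it was 799 with cisplatin and 1228 without, and for *vit-4* 604 and 891, below every library value of the same group, or 0.498 and 0.393 of the mean of the libraries. The same ratio was 0.988 for *vit-1*, 1.03 for *vit-2*, 0.901 for *vit-5* and 1.03 for *vit-6*, and its median over all genes tested was 0.981. This ratio adds up both conditions, so opposite shifts cancel in it. The condition values were 662 with cisplatin and 978 without for *vit-1*, and 5036 and 7228 for *vit-2*. For both, the cisplatin value was below both exposed libraries and the control value above both controls. The cisplatin to control ratio of the condition values ran from 0.606 for *vit-6* to 0.774 for *vit-5*. From the library means these genes gave 0.695 and 0.894. Of all genes tested, 210 (1.39%) had a condition value below both libraries in both conditions, and 180 (1.19%) had a ratio of at most 0.6. *vit-3* and *vit-4* are also the 2 members whose deposited coordinates span only the region of exon 1, and the cause was not tested.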
